A study of Mus musculus with 15 samples.

Results

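The genes described here are 9 members of the gp130 cytokine family, 4 ligands (Il6, Lif, Il11 and Clcf1) and 5 receptor chains (Il6st, Il6ra, Lifr, Osmr and Il11ra1), chosen by name from a list of the family that was drawn up with earlier results of these data known. They are 9 of the 35675 genes to which transcripts could be assigned, and all 9 were among the 19331 genes tested. Bulk poly-A RNA-seq was read from 15 cultures of primary mouse embryonic fibroblasts (MEFs), 3 lines in each of 5 conditions, all of the genotype Tg:Pax7-nGFP/C57BL6;DBA2, in which a nuclear GFP reports Pax7. In 4 conditions the fibroblasts were transfected 4 times with synthetic mRNA encoding the muscle transcription factor MyoD, in iMPC medium with B18R, a decoy for type I interferon. These were MyoD + F/R/C + CP, with forskolin (which raises cAMP), RepSox (a TGF-beta receptor inhibitor), CHIR99210 (a GSK3 inhibitor) and the JAK inhibitor CP690550. The others were MyoD + F/R/C + SP, with F/R/C and the JNK inhibitor SP600125, then MyoD + F/R/C, and then +MyoD, which had no small molecule. The last condition was untreated MEFs in iMPC medium, with no transfection, and none of the 4 transfected conditions had a transfection without MyoD as its control, so MyoD, the transfection and B18R cannot be told apart in a comparison with MEFs. The labels give day 10 for all 15 cultures, but the deposited MEF data are named as day 0, and if that holds, time in culture cannot be told apart from them either. The same 3 lines, each from 1 embryo, stood behind every condition, so the 3 values of a condition are separate lines (n = 3 throughout). Replicate numbers were read as line numbers across conditions, which the study's methods do not state.

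Cytokines of this family signal through gp130, the product of Il6st, which pairs with a second chain that sets which ligand is heard. IL-6 binds the alpha chain Il6ra and IL-11 binds Il11ra1, and both then use gp130 alone to signal, whereas LIF uses gp130 with LIFR and mouse oncostatin M uses gp130 with OSMR. CLCF1 reaches gp130 and LIFR through the CNTF receptor. The chains carry JAK kinases, which phosphorylate STAT3, and SOCS3, a STAT3 target, binds gp130 and shuts the signal off. In skeletal muscle, LIF and IL-6 are known as factors that act on the proliferation of muscle precursors, and IL-6 is released by working muscle.

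Total estimated counts per library ranged between 29393872 and 41885769, with a median of 38458894. The +MyoD libraries differed most among themselves, with a chi-square per degree of freedom of 124 to 189 between their pairs against 15.4 to 78.7 in the other 4 conditions, and +MyoD line 1 stood apart for several members, so results that turn on it are given with and without it. Skeletal muscle markers summed over 8 genes lay at 5258 to 7455 CPM (counts scaled to the TMM library size) with CP, 4833 to 6152 CPM with SP, 5591 to 8512 CPM in MyoD + F/R/C, 1185 to 1739 CPM in +MyoD and 37.5 to 50.1 CPM in MEFs. Fibroblast markers, also 8 genes, summed to 13740 to 15690 CPM with CP, 10200 to 12940 CPM with SP, 10210 to 17130 CPM in MyoD + F/R/C, 10580 to 36940 CPM in +MyoD and 3088 to 4130 CPM in MEFs. All 8 muscle and all 8 fibroblast markers were called higher in +MyoD and in MyoD + F/R/C than in MEFs, so both lists moved with every comparison to MEFs below, and their part in the results was not tested. Between MyoD + F/R/C and +MyoD, all 8 muscle markers were called higher, and 5 fibroblast markers higher and 1 lower, while no marker of either list was called with CP or SP against MyoD + F/R/C. In bulk cultures, fewer cells of a type and less RNA per cell cannot be told apart. The 8 macrophage markers summed to 16.1 to 27.0 CPM with CP, 13.7 to 14.9 CPM with SP, 11.2 to 14.8 CPM in MyoD + F/R/C, 14.5 to 26.9 CPM in +MyoD and 21.8 to 32.1 CPM in MEFs, so that CP and MyoD + F/R/C libraries did not overlap. Lyz2, the most abundant of them with CP, was at 7.0 to 15.4 CPM with CP, against 1.11 to 4.10 CPM in MyoD + F/R/C, and was not called there (adjusted p 0.21). Csf1r and Cd68 reached at most 7.31 and 5.82 CPM in any library, Adgre1, Fcgr1 and the general leukocyte marker Ptprc at most 2.14, 0.56 and 0.96 CPM, and the part of these markers in the CP values was not tested. Endothelial markers (5 genes) summed to 9.44 to 15.6 CPM with CP, 5.02 to 12.4 CPM with SP, 5.88 to 12.5 CPM in MyoD + F/R/C, 2.43 to 3.23 CPM in +MyoD and 5.45 to 9.004 CPM in MEFs.

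The genes lie on 8 chromosomes (GRCm38, whole gene with exons and introns). The ligands are Il6 (ENSMUSG00000025746.11) at chr5:30013114-30019981 on the plus strand, Lif (ENSMUSG00000034394.14) at chr11:4257557-4272514 on the plus strand, Il11 (ENSMUSG00000004371.15) at chr7:4772373-4782859 on the minus strand and Clcf1 (ENSMUSG00000040663.9) at chr19:4214238-4223490 on the plus strand. The receptor chains are Il6st (ENSMUSG00000021756.12) at chr13:112464070-112510086 on the plus strand, Il6ra (ENSMUSG00000027947.11) at chr3:89864059-89913196 on the minus strand, Lifr (ENSMUSG00000054263.12) at chr15:7090614-7197489 on the plus strand, Osmr (ENSMUSG00000022146.12) at chr15:6813577-6874969 on the minus strand and Il11ra1 (ENSMUSG00000073889.10) at chr4:41699989-41769474 on the plus strand. Lifr and Osmr are both on chromosome 15.

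Windows of 3 ligands and a receptor are shown because they hold the letters of an AP-1 site, TGANTCA, the motif bound by the Jun and Fos proteins that act downstream of JNK, the target of SP. The sequences are those of RefSeq on GRCm38.p6, read 5′ to 3′ on the gene's strand, with matches to the searched motifs in capitals. Shown are the 250 bases before the start of Il6 (chr5:30012864-30013113, plus strand), of Lif (chr11:4257318-4257567, plus strand) and of Il11 (chr7:4778142-4778391, minus strand), and 120 bases before to 10 bases after the start of Osmr (chr15:6874304-6874433, minus strand).
Il6: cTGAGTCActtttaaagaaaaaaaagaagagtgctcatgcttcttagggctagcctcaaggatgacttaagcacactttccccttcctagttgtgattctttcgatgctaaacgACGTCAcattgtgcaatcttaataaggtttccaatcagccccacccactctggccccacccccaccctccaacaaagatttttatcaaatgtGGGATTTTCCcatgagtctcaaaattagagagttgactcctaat
Lif: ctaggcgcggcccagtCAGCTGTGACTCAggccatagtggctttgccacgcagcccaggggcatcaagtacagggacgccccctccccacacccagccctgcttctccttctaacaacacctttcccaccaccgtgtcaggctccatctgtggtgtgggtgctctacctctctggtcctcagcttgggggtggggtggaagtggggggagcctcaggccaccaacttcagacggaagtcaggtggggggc
Il11: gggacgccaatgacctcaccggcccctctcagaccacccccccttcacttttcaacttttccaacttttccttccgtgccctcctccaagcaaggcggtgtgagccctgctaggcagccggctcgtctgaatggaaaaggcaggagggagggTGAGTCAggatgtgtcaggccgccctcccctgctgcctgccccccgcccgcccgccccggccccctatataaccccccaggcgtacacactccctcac
Osmr: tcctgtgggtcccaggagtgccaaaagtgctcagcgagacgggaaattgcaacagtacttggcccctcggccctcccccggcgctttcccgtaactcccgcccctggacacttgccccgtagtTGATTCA
The AP-1 letters begin 249 bases before the start of Il6, 228 before that of Lif and 98 before that of Il11, and at the fourth base counted from that of Osmr.

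RefSeq windows, 250 bases before to 50 after a start, were matched for 8 of the 9 members and gave 11 windows. A set of 5 motifs was searched on both strands, the AP-1 motif, the core of the cAMP response element (TGACGT), the STAT motif TTCNNNGAA, the NF-kB motif (GGGA, any base, TTTCC) and the E-box CAGCTG that MyoD prefers. AP-1 letters stood in 4 of the 11 member windows, against 7.81% of all 32851 windows. The cAMP core stood in the Il6 window only, 136 bases before its start (7.51% of all windows hold it), and so did the NF-kB letters, 44 bases before the start (0.411% of all windows). The E-box was in 3 member windows, in Lif directly before the AP-1 letters with no shared base, in the upstream window of Il11 and in 1 window of Lifr (16.3% of all windows). No member window held the STAT letters, which occur in 8.3% of all windows, and this says only that those letters are not in these windows. By the deposited transcript estimates, the Il11 start shown belongs to the transcript with 48.1 to 100% of the gene's counts in a library. The windows shown for Lif and Il6 do not cover all starts that were read. Lif-201, which starts downstream at base 4267095, held 20.3 to 78.8% of the Lif counts in a library. Il6-204, which starts downstream at base 30013321, held 13.0 to 100% of the Il6 counts. The Osmr start shown lies inside the gene of the GENCODE annotation, whose main Osmr transcript begins further upstream.

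Levels can be compared between genes only per transcript length, so TPM was summed here over transcripts whose coding length is at least 0.5 times the gene's longest. The highest member was a receptor in every condition, with Il6st first or second, but receptors were not above all ligands. In +MyoD, Lifr (6.08 ± 1.18 TPM) and Il6ra (5.18 ± 1.47 TPM) averaged below every ligand, of which Il6 was the lowest at 15.2 ± 3.0 TPM. The +MyoD libraries of Il11 ran from 3.89 to 56.4 TPM and overlapped those of Osmr and Il11ra1. With CP, Il11ra1 (87.0 ± 4.1 TPM) and Il6st (79.5 ± 7.7 TPM) overlapped at the top, and Osmr stood below both at 38.4 ± 7.9 TPM. The order in MyoD + F/R/C was Il6st at 134.0 ± 14.97 TPM, then Il11ra1 (90.9 ± 9.2) and Osmr (78.9 ± 12.8), which overlapped, and then a gap down to Lifr at 13.7 ± 0.6 TPM. The ligands of MyoD + F/R/C ran through Lif at 12.3 ± 4.2, Il11 at 6.85 ± 0.84 and Il6 at 6.56 ± 2.17 TPM down to Clcf1 at 3.70 ± 2.39 TPM. In MEFs, Il6st averaged 40.2 ± 4.5 TPM (SD), above all others, followed by Il11 at 24.0 ± 6.2, Il11ra1 at 17.6 ± 2.8, Osmr at 13.4 ± 2.4, Clcf1 at 12.46 ± 2.7 and Lif at 12.45 ± 3.9 TPM, neighbours whose libraries overlapped. Lifr (2.77 ± 0.32 TPM), Il6 (2.69 ± 0.49 TPM) and Il6ra (2.14 ± 0.64 TPM) formed a lower group in MEFs and overlapped each other. Without the choice of coding transcripts, Il6st was the highest member in all 5 conditions. The difference rests on a short annotated Il6st transcript, which held about 1% of the gene's counts but a mean of 32.4 TPM with CP.

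**Figure D1:**
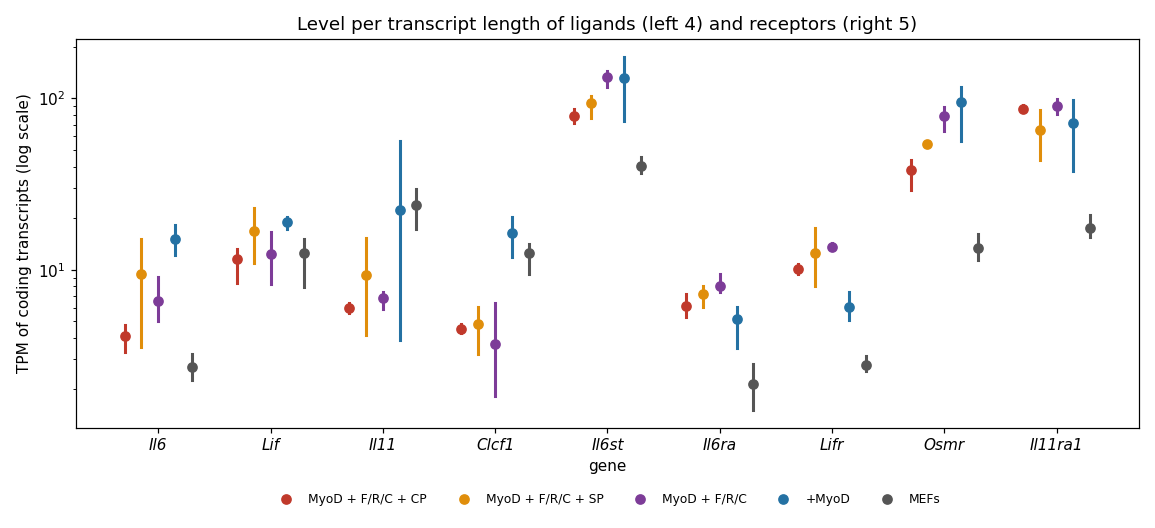
TPM summed over coding transcripts (log scale) for the 4 ligands and 5 receptors, with a point for the mean and a bar from the lowest to the highest of the 3 libraries of each condition. Il6st, Osmr and Il11ra1 stand above the other receptors in every condition, and MEFs are lowest for all 5 receptors.

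The first question was how the family differed between +MyoD and untreated MEFs. In +MyoD, all 5 receptors and the ligand Il6 were higher than in MEFs, 6 of the 9 members, while 22.8% of all tested genes were called higher. No member was called lower by edgeR's quasi-likelihood test, where 18% of all genes were. None of the members had an unadjusted p under 0.05 on that side (23.2% of all genes did). DESeq2 called 0 members lower (18.7% of all genes), and no member had all +MyoD libraries below the MEFs (24.7% of all genes did). The median log2 fold change of the members was 1.24, against 0.12 over all genes tested. Called here means a Benjamini-Hochberg adjusted p of at most 0.05 and a log2 fold change over 0.5 in size.

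Osmr, the oncostatin M receptor chain, had the largest log2 fold change of the 9 members. It stood at 180 (line 1), 404 and 358 CPM in the +MyoD libraries of lines 1 to 3, against 56.3, 47.6 and 42.1 CPM in MEFs, and every +MyoD library was above every MEF library. The fitted difference was a log2 fold change of 2.69 (SE 0.25, adjusted p 6.6e-07), or 6.45-fold.

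Il6st, the shared gp130 chain, stood at 271, 679.6 and 557 CPM in +MyoD, against 181, 162 and 153 CPM in MEFs. The +MyoD library of line 1 was the lowest of its condition, yet above all MEF libraries. The difference was 3.04-fold (log2 fold change 1.61, SE 0.24, adjusted p 5.7e-05). Il11ra1, the alpha chain for IL-11, had the same lagging library, at 41.1, 91.5 and 105 CPM in +MyoD, against 24.8, 19.0 and 20.5 CPM in MEFs, a log2 fold change of 1.88 (SE 0.26, adjusted p 3.2e-05).

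Lifr, the LIF receptor chain, stood at 20.1, 28.7 and 29.9 CPM in +MyoD, against 14.1, 9.32 and 9.86 CPM in MEFs, with no overlap and a log2 fold change of 1.24 (SE 0.23, adjusted p 4.3e-04). Il6ra, the alpha chain for IL-6, was at 18.5, 12.02 and 15.1 CPM in +MyoD, against 6.92, 6.63 and 9.95 CPM in MEFs. Its log2 fold change of 0.96 (SE 0.22, adjusted p 0.0021) was the smallest of the 5 receptors.

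Among the ligands, Il6 was called higher and Lif, Il11 and Clcf1 were not. Il6 was at 6.01, 12.1 and 8.04 CPM in +MyoD, against 1.11, 1.73 and 1.55 CPM in MEFs, where it rested on 40 to 61 counts a library. The groups did not overlap, and the log2 fold change was 2.57 (SE 0.41, adjusted p 9.4e-05), a 5.96-fold difference. Lif stood at 44.0, 43.5 and 46.1 CPM in +MyoD, against 19.6, 38.4 and 39.6 CPM in MEFs. Every +MyoD library was above the MEFs, but the difference was not called (log2 fold change 0.45, 95% confidence interval -0.16 to 1.06, adjusted p 0.22). Counting Lif, 7 of the 9 members had +MyoD libraries all above the MEFs, which 26.6% of all genes did. Clcf1 was at 35.9, 38.5 and 46.7 CPM in +MyoD, against 35.03, 37.0 and 40.0 CPM in MEFs (log2 fold change 0.11, 95% confidence interval -0.37 to 0.59).

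Il11 was decided by a single library. It stood at 49.0 CPM in +MyoD line 1 but 5.99 and 4.15 CPM in lines 2 and 3, against 27.6, 18.2 and 30.6 CPM in MEFs. The fit over all 3 lines gave a log2 fold change of -0.37 (95% confidence interval -1.76 to 1.02, adjusted p 0.69). Without line 1 of +MyoD it was -2.33 with an adjusted p of 1.4e-04 and was called lower, so that the number of members called lower became 1, in a fit where 18.8% of all genes were called lower.

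**Figure D2:**
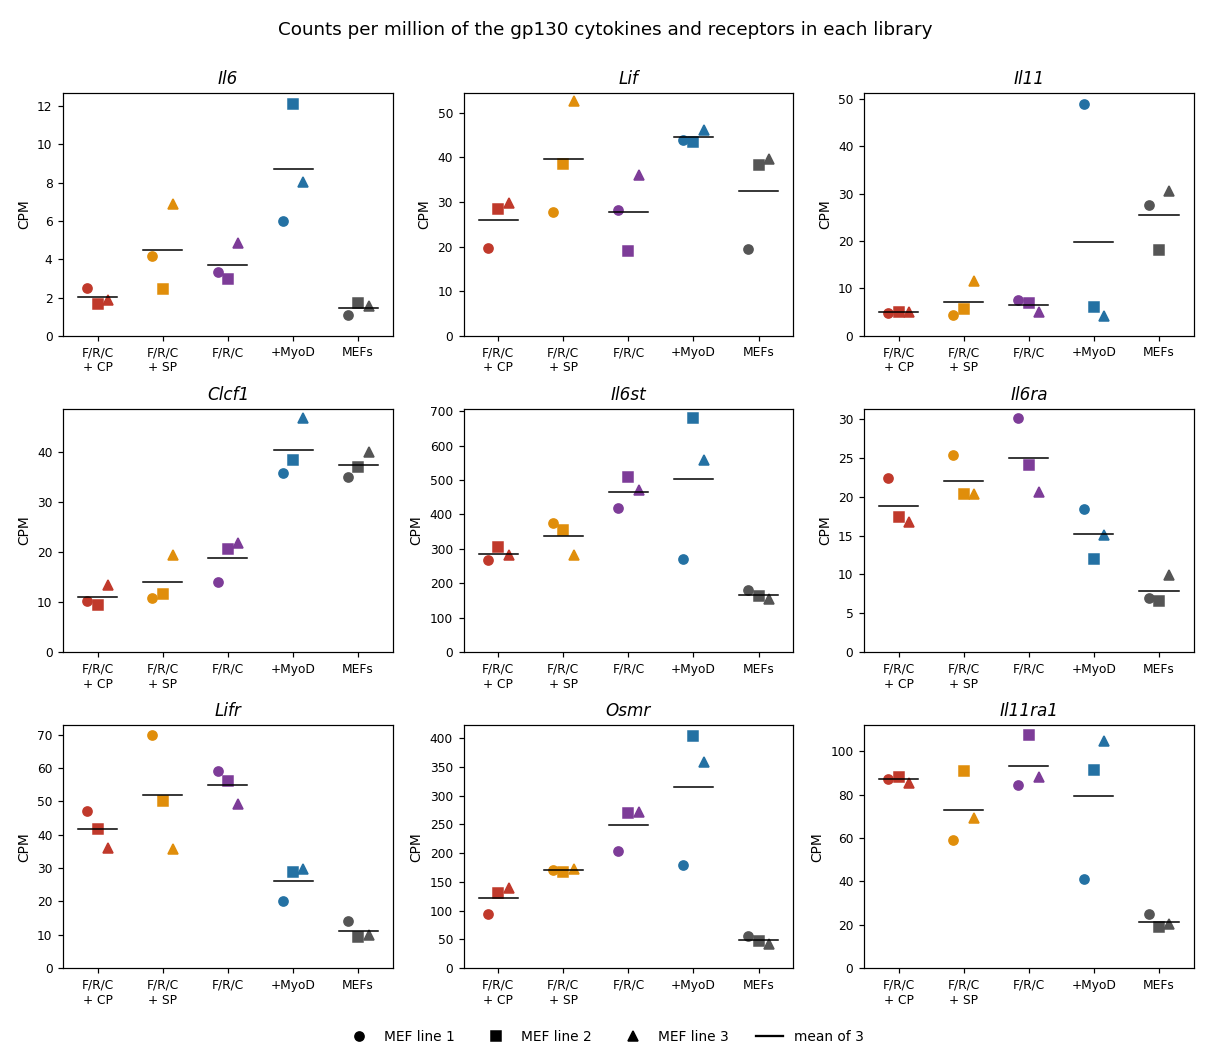
CPM of each member in the 15 libraries, with symbols for the 3 MEF lines, a line at the mean of each condition, axes that start at 0 and F/R/C on the axis standing for MyoD + F/R/C. MEFs are lowest for all 5 receptors, and the +MyoD library of line 1 is far from lines 2 and 3 for Il11 (49.0 CPM), Il6st (271 CPM), Osmr (180 CPM) and Il11ra1 (41.1 CPM).

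The second question was what F/R/C changed on top of MyoD. Of the 5 receptors 2, Lifr and Il6ra, were called higher in MyoD + F/R/C than in +MyoD (10.9% of all genes were), and of the 4 ligands 2, Clcf1 and Il6, were called lower (8.39% of all genes). Il6st, Osmr, Il11ra1, Lif and Il11 were not called. The median over the 9 members was -0.34, against 0.03 over all genes.

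Lifr was at 59.0, 56.0 and 49.3 CPM in MyoD + F/R/C, against 20.1, 28.7 and 29.9 CPM in +MyoD, a 2.09-fold difference (log2 fold change 1.06, SE 0.23, adjusted p 0.0036) with no overlap. Il6ra was at 30.2, 24.1 and 20.7 CPM, against 18.5, 12.02 and 15.1 CPM in +MyoD (log2 fold change 0.72, SE 0.22, adjusted p 0.026). The call on Il6ra did not hold in 4 of the 6 fits with 1 library left out. Without line 1 or line 2 of MyoD + F/R/C its adjusted p was 0.11 and 0.054, and without line 2 or line 3 of +MyoD it was 0.10 and 0.060.

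Clcf1 fell to 13.9, 20.6 and 21.8 CPM in MyoD + F/R/C, against 35.9, 38.5 and 46.7 CPM in +MyoD, with no overlap (log2 fold change -1.10, SE 0.23, adjusted p 0.0028). Il6 fell to 3.32, 2.95 and 4.86 CPM, against 6.01, 12.1 and 8.04 CPM in +MyoD, also with no overlap (log2 fold change -1.23, SE 0.38, adjusted p 0.031). That call was lost without line 1 or line 2 of MyoD + F/R/C (adjusted p 0.12 and 0.11) and without line 2 of +MyoD (0.14).

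Lif had its 3 MyoD + F/R/C libraries, at 28.3, 19.1 and 36.1 CPM, all below the +MyoD libraries at 44.0, 43.5 and 46.1 CPM. Its difference was not called (log2 fold change -0.68, SE 0.29, adjusted p 0.11), but with the MEF line as a replicate block it was (log2 fold change -0.70, adjusted p 0.039). Counting Lif, 3 of the 9 members had all F/R/C libraries below all +MyoD libraries, as did 15.4% of all genes, and 2 had them all above, as did 18.1%. Il11, at 7.54, 6.98 and 5.01 CPM in MyoD + F/R/C, gave a log2 fold change of -1.60 (adjusted p 0.11), which was 0.36 without line 1 of +MyoD. Without line 2 or line 3 of +MyoD the same difference was called (-2.03 and -2.08, adjusted p 0.039 and 0.020).

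The shared and most abundant receptors gave intervals around 0. Il6st, at 419, 508 and 470.2 CPM in MyoD + F/R/C, had a log2 fold change of -0.11 (95% confidence interval -0.61 to 0.39). Osmr, at 204, 270.1 and 272 CPM, had -0.34 (-0.84 to 0.17), and without line 1 of +MyoD -0.62 with an adjusted p of 0.019, a call. Il11ra1, at 84.5, 107 and 88.1 CPM, had 0.24 (-0.30 to 0.78).

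Set against untreated MEFs, MyoD + F/R/C left all 5 receptors and Il6 higher and the ligands Il11 and Clcf1 lower, 8 of the 9 members, in a comparison where 26.6% of all genes were called higher and 21.6% lower. This comparison shares its libraries with both above, so it is not a separate test of them. The receptor log2 fold changes were 2.35 for Osmr, 2.30 for Lifr, 2.12 for Il11ra1, 1.67 for Il6ra and 1.496 for Il6st (SE 0.22 to 0.27, adjusted p at most 8.2e-05). For these and Il6, 6 members, all MyoD + F/R/C libraries were above all MEF libraries (34.3% of all genes), and for Il11 and Clcf1, 2 members, all were below (29.5%).
Il6 was 2.53-fold higher (log2 fold change 1.34, SE 0.39, adjusted p 0.0096), a call lost without line 3 of MyoD + F/R/C (adjusted p 0.055) and with lengthScaledTPM counts (estimated counts rebuilt from TPM and transcript length; log2 fold change 1.02, adjusted p 0.074). Clcf1 had a log2 fold change of -0.99 (SE 0.23, adjusted p 0.0018). Il11, at 5.01 to 7.54 CPM against 18.2 to 30.6 CPM in MEFs, had -1.97 (SE 0.68, adjusted p 0.023), but was not called without line 2 or line 3 of MyoD + F/R/C or line 3 of MEFs (adjusted p 0.054, 0.073 and 0.060). Lif, at 28.3, 19.1 and 36.1 CPM against 19.6, 38.4 and 39.6 CPM in MEFs, overlapped fully (log2 fold change -0.22, 95% confidence interval -0.84 to 0.39).

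The third question was whether the JAK inhibitor CP, which acts just below these receptors, or the JNK inhibitor SP altered their transcripts in F/R/C cultures. With CP, no member was called in the fit of all libraries by edgeR's quasi-likelihood test, in a comparison where 7 of 19331 genes were called lower (0.0362%) and none higher. None had all CP libraries above (7.94% of all genes did), an unadjusted p under 0.05 on the higher side (3.9%) or a DESeq2 call there (0.367%). All 9 fitted values were below 0, as were 9672 of the 19331 over all genes, and 4 members (Il6, Clcf1, Il6st and Osmr) had an unadjusted p under 0.05 on that side, where 4.01% of all genes did. In 5 members, these 4 and Lifr, all CP libraries were below all MyoD + F/R/C libraries, as in 9.08% of all genes. The values of Lif and Il11ra1 changed sign when 1 library was left out, so only 7 of the 9 kept theirs in every alternative.

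Osmr gave the largest difference with CP and the one nearest to a call. It stood at 94.6, 131 and 139 CPM with CP, against 204, 270.1 and 272 CPM in MyoD + F/R/C, 0.489 times the level. Within the lines, the log2 difference was -1.11, -1.04 and -0.97. The fitted log2 fold change was -1.03 (SE 0.24, 95% confidence interval -1.54 to -0.52), with an unadjusted p of 6.1e-04 and an adjusted p of 0.18. DESeq2 called it (adjusted p 0.0081), and so did a fit of only the 9 libraries with F/R/C (0.017) and one without the low-count filter (0.042). In that order, these fits called 0.621%, 0.601% and 0.123% of all their tested genes lower. Over all 13 alternatives the adjusted p ran between 0.0081 and 0.71, and the log2 fold change between -1.16 and -0.88.

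Il6st was at 267, 305 and 282 CPM with CP, against 419, 508 and 470.2 CPM in MyoD + F/R/C. The fitted log2 fold change was -0.71 (SE 0.24, 95% confidence interval -1.21 to -0.21, adjusted p 0.40), with -0.65, -0.74 and -0.74 within the lines. It was called in the fit of 9 libraries (adjusted p 0.030) and in that of the 6 compared (0.045). Those fits called 0.601% and 0.407% of all their tested genes lower. Lifr was at 47.2, 41.6 and 36.1 CPM with CP, against 59.0, 56.0 and 49.3 CPM in MyoD + F/R/C, a log2 fold change of -0.40 (95% confidence interval -0.88 to 0.09). Of the alpha chains, Il6ra was at 22.4, 17.5 and 16.7 CPM with CP (-0.41, -0.86 to 0.05) and Il11ra1 at 87.1, 88.2 and 85.5 CPM (-0.10, -0.64 to 0.44), the value nearest to 0 of the receptors.

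Of the ligands, Clcf1 was at 10.2, 9.45 and 13.3 CPM with CP, against 13.9, 20.6 and 21.8 CPM in MyoD + F/R/C (log2 fold change -0.78, 95% confidence interval -1.27 to -0.29, adjusted p 0.31). Il6 was at 2.48, 1.68 and 1.87 CPM with CP, on 59 to 105 counts a library, against 3.32, 2.95 and 4.86 CPM (-0.88, -1.71 to -0.05, adjusted p 0.58). Both groups of libraries were apart, and neither gene was called in any alternative. Summed over coding transcripts as above, Clcf1 was not lower with CP. It was at 4.3 to 4.8 TPM with CP, within the 1.8 to 6.4 TPM of MyoD + F/R/C. Lif, at 19.8, 28.5 and 29.7 CPM with CP, and Il11, at 4.86, 5.05 and 4.94 CPM, had intervals that span 0 (-0.71 to 0.51 and -1.81 to 1.02).

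With SP, no gene at all was called by edgeR's quasi-likelihood test, in either direction (0 of 19331, 0%), although 732 genes (3.79%) reached an unadjusted p of 0.05 on the higher side, none of them a member. DESeq2 called 42 genes higher and 13 lower, again no member. Osmr was the only member with an unadjusted p under 0.05, on the lower side, where 2.83% of all genes stood. It was at 171, 168 and 173 CPM with SP, against 204, 270.1 and 272 CPM in MyoD + F/R/C, with no overlap (log2 fold change -0.54, SE 0.24, 95% confidence interval -1.05 to -0.04, adjusted p 0.74). Il6st, at 375, 355 and 282 CPM with SP, was also below every MyoD + F/R/C library (-0.47, -0.97 to 0.03), so that 2 of the 9 members were apart on that side, as were 6.99% of all genes, and 0 on the higher side (7.18%).
Since edgeR's test called no gene at all with SP, the lack of a call for the members with AP-1 letters in their windows is no result about those letters. Their part was not tested. Il6 was at 4.15, 2.46 and 6.90 CPM with SP (log2 fold change 0.28, 95% confidence interval -0.54 to 1.09), Lif at 27.7, 38.6 and 52.8 CPM (0.51, -0.10 to 1.12) and Il11 at 4.35, 5.73 and 11.5 CPM (0.14, -1.27 to 1.55). Each of these ligands was highest in line 3 with SP, and without that library the value was -0.18 for Il6 and -0.38 for Il11. Lifr was at 69.8, 50.2 and 35.8 CPM with SP (-0.08, -0.56 to 0.40) and Clcf1 at 10.8, 11.5 and 19.5 CPM (-0.43, -0.92 to 0.05).

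**Figure D3:**
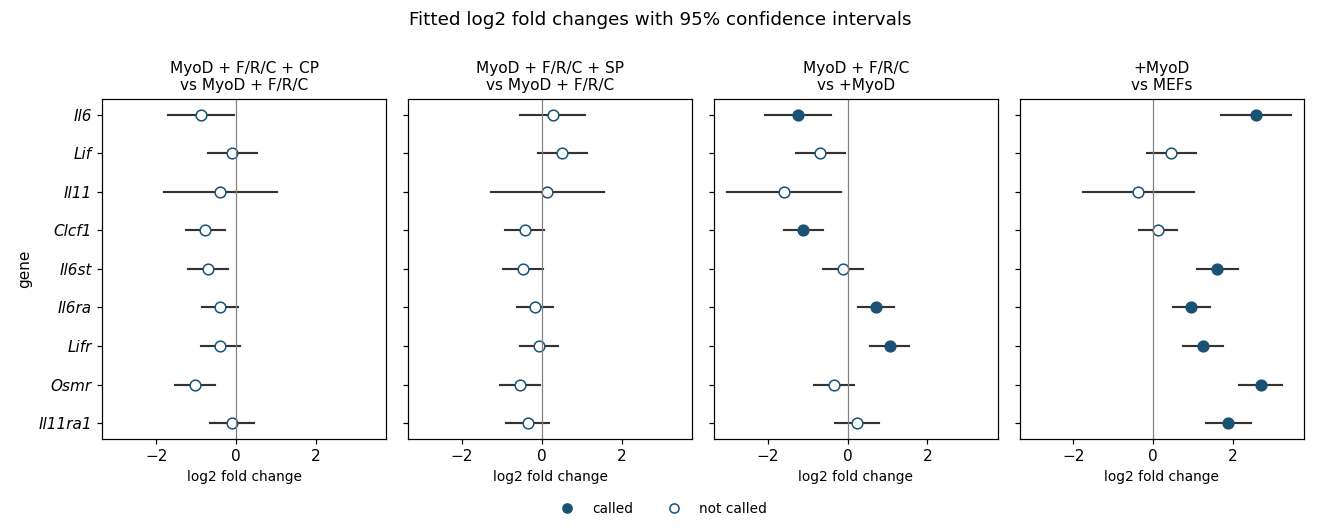
Fitted log2 fold changes of the 9 members (points) with 95% confidence intervals (bars) in 4 comparisons, filled where called. With CP all points lie left of 0 and Osmr (-1.03) is farthest out, and in +MyoD against MEFs 6 filled points lie right of 0.

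Taken directly, CP against SP called no member by edgeR's quasi-likelihood test, where 0.197% of all genes were called lower and none higher. DESeq2 called no member either, with 0.45% of all genes lower and 0.0259% higher. No member had all CP libraries above all SP libraries (5.07% of all genes) or an unadjusted p under 0.05 on that side (1.39%), and Il6 was the only one with such a p on the lower side (2.62%). Il6, at 2.48, 1.68 and 1.87 CPM with CP against 4.15, 2.46 and 6.90 CPM with SP, had the largest log2 fold change, -1.16 (95% confidence interval -1.99 to -0.33, unadjusted p 0.0095, adjusted p 0.85). Osmr, at 94.6, 131 and 139 CPM with CP against 171, 168 and 173 CPM with SP, was the only member whose groups did not overlap (-0.49, -0.99 to 0.02), where 6.31% of all genes were apart on that side. The inhibitors were thus not shown to differ on any member, and the interval of the difference was -0.74 to 0.26 for Il6st, -0.80 to 0.16 for Lifr and -1.22 to 0.00 for Lif on the log2 scale.

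Against the 2 conditions without an inhibitor or F/R/C, which share their libraries with the comparisons above, the inhibitor cultures gave these values. With CP against MEFs, 5 members were called higher, the receptors (24.9% of all genes), and Il11 and Clcf1 lower (20.6%), while Il6 had a log2 fold change of 0.46 (adjusted p 0.36). With SP against MEFs, the receptors and Il6 (1.62, adjusted p 0.0031) were called higher (24.5% of all genes) and Il11 and Clcf1 lower (20.1%). Against +MyoD, CP cultures had Lifr called higher (0.67, with 12.6% of all genes) and 5 members lower (9.98%), Il6 (-2.12), Il11 (-1.99), Clcf1 (-1.88), Osmr (-1.37) and Il6st (-0.82). SP cultures had Lifr higher (0.99, with 12% of all genes) and Clcf1 (-1.54) and Osmr (-0.88) lower (8.93%).

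The other genes of the pathway, from lists chosen with earlier results of these data known, gave the setting. Of 8 further ligands or ligand subunits, 4 were tested. Osm, which encodes the ligand of OSMR, had 0 counts in all 15 libraries, which allows at most 0.095 CPM (3 counts) in a library, counting error only. Ctf1, the cytokine cardiotrophin-1, was called higher in +MyoD (1.47, 5.38 and 5.79 CPM, against 0.64, 0.79 and 0.85 CPM in MEFs, log2 fold change 2.47, adjusted p 0.0014). Of the other receptors, Cntfr, the CLCF1 and CNTF receptor, was at 16.6, 20.5 and 12.01 CPM in MyoD + F/R/C, against 3.76, 12.2 and 5.25 CPM in +MyoD, and called (log2 fold change 1.21, adjusted p 0.021). That call was lost in 4 of 12 alternatives, with only the 6 libraries compared (adjusted p 0.11) and without line 1 or 3 of +MyoD or line 2 of MyoD + F/R/C (0.067, 0.075 and 0.085). Il31ra, the IL-31 receptor chain that pairs with OSMR, was at 3.58, 5.75 and 3.04 CPM in MyoD + F/R/C, against 0, 0 and 0.30 CPM in +MyoD (adjusted p 0.0029), so its fitted fold rests on libraries at 0.

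Of 11 signal transducers, 7 were called higher and none lower in +MyoD than in MEFs, where 22.8% and 18% of all genes were (median log2 fold change 0.58, against 0.12 over all genes). Jak3, a JAK kinase best known in lymphoid cells, was at 25.7, 53.5 and 47.0 CPM in +MyoD, against 2.002, 1.84 and 1.61 CPM in MEFs (log2 fold change 4.53, SE 0.32, adjusted p 5.1e-08). T cell markers (4 genes) also summed to more in +MyoD, 3.43 to 11.03 CPM against 0.057 to 0.32 CPM in MEFs, and their part in the Jak3 value was not tested. Most of that sum was Cd3g, at 2.30 to 10.49 CPM in +MyoD and at most 0.12 CPM in MEFs, while Cd3d, Cd3e and Cd4 reached at most 0.47, 0.47 and 0.44 CPM in +MyoD. Stat3, the main STAT of the family, was at 301, 333 and 385 CPM in +MyoD, against 121, 91.8 and 92.0 CPM in MEFs (1.74, SE 0.15, adjusted p 2.7e-07). With F/R/C against +MyoD, 2 transducers were called higher (10.9% of all genes) and 3 lower (8.39%). Jak2, a gp130-bound kinase, was among the higher, at 87.0, 122 and 97.99 CPM against 49.0, 54.5 and 69.2 CPM in +MyoD (0.83, SE 0.15, adjusted p 9.1e-04).

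In the fit of all libraries, Jak2 was also the only gene of these lists called with CP against MyoD + F/R/C. It fell to 48.5, 52.4 and 55.1 CPM with CP, against 87.0, 122 and 97.99 CPM in MyoD + F/R/C, with no overlap (log2 fold change -0.98, SE 0.15, adjusted p 0.028). The call was lost in 7 of 13 alternatives, with lengthScaledTPM counts (adjusted p 0.088) and in all 6 fits with a library of the comparison left out (0.067 to 0.25), and the log2 fold change ran between -1.08 and -0.83. Socs3, Jak3 and the listed STAT3 target Serpina3n were not called with CP in the fit of all libraries. They were also not called in 10, 11 and 11 of 13 alternatives, in that order, and in the rest they were called lower.

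Of 6 feedback inhibitors, 4 were called higher and none lower in +MyoD than in MEFs (22.8% and 18% of all genes, median log2 fold change 1.48), and the same count held for MyoD + F/R/C against MEFs (26.6% and 21.6%). Socs3, which shuts off gp130, was at 131, 191 and 132 CPM in MyoD + F/R/C, against 41.8, 100.4 and 86.4 CPM in +MyoD, and was called (log2 fold change 0.99, SE 0.27, adjusted p 0.014), though not with only the 6 libraries compared or without line 2 of MyoD + F/R/C (0.079 and 0.071). With CP, Socs3 was at 67.9, 75.5 and 73.4 CPM, against those 131 to 191 CPM in MyoD + F/R/C (-1.07, 95% confidence interval -1.64 to -0.50, adjusted p 0.21), and Cish, an inhibitor induced by STAT5, at 9.06, 12.47 and 10.6 CPM against 14.2, 25.2 and 25.1 CPM (-1.005, -1.69 to -0.32, adjusted p 0.37).

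Of 19 genes listed as STAT3 targets, 14 were called higher and 1, Myc, lower in +MyoD than in MEFs (22.8% and 18% of all genes), with a median log2 fold change of 1.88 against 0.12 over all genes. Icam1, an adhesion molecule, was at 43.6, 63.1 and 118 CPM in +MyoD, against 5.59, 2.92 and 3.28 CPM in MEFs (log2 fold change 4.25, adjusted p 1.5e-07). Serpina3n, an acute-phase protease inhibitor, was at 33.6, 77.2 and 252 CPM in +MyoD, against 0.36, 0.85 and 1.32 CPM in MEFs (7.17, adjusted p 2.0e-06). Many of these genes also answer to other factors such as NF-kB. With CP against MyoD + F/R/C, none of the 19 was called in the fit of all libraries, and 16 of the 19 fitted values were below 0 (median -0.49). Il4ra, the IL-4 receptor chain, had the smallest p (72.7, 107 and 120.3 CPM with CP, against 179, 236 and 267 CPM in MyoD + F/R/C, -1.19, adjusted p 0.10). The receptor sheddases Adam10 and Adam17, which release soluble Il6ra, were not called in any of the 6 comparisons.

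**Figure D4:**
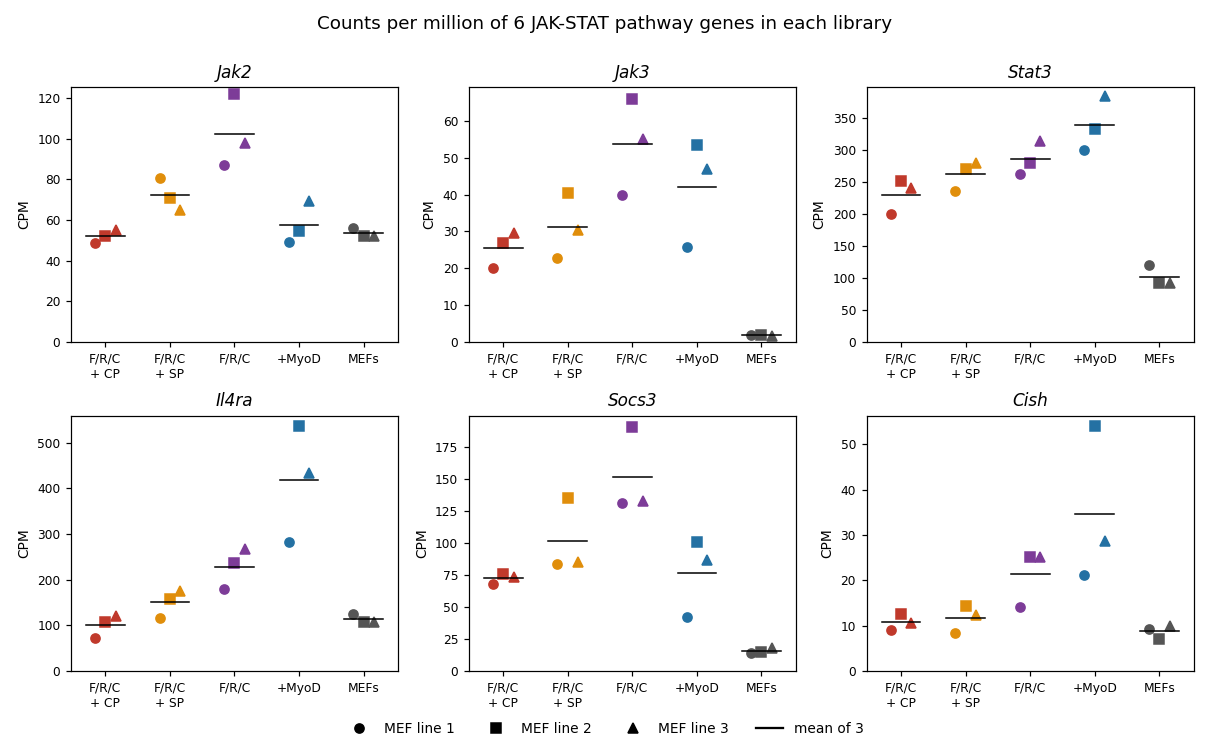
CPM of Jak2, Jak3, Stat3, Il4ra, Socs3 and Cish in the 15 libraries, with symbols for the 3 MEF lines, a line at the mean of each condition, axes that start at 0 and F/R/C on the axis standing for MyoD + F/R/C. Jak2 is lower with CP (48.5 to 55.1 CPM) than in MyoD + F/R/C (87.0 to 122 CPM), and MEFs are lowest for Jak3 (1.61 to 2.002 CPM) and Stat3 (91.8 to 121 CPM).

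Members were also compared with each other and with all tested genes over the 15 libraries, as a description, since libraries of a condition share their treatment. Osmr and Il6st had a Pearson r of 0.965 with each other in log2 CPM, and Lifr and Il6ra one of 0.905. Among the ligands Lif and Il6 had 0.574, Clcf1 and Il11 0.578, and Il6 and Il11 -0.246. Il6 was nearer to Osmr (0.812) than to any other ligand. The 3 tested genes nearest to Osmr were Kcnj15 (0.979), Pde1a (0.975) and 1700023F06Rik (0.970). Nearest to Il6st were Kcnj15 (0.966), Osmr and Cda (0.960), to Lifr Ahr (0.972), Cped1 (0.971) and Smarca2 (0.969), to Il6ra Mlph (0.963), Chl1 (0.962) and Cerk (0.955), and to Il11ra1 Maged2 (0.986), D10Jhu81e (0.982) and Slc12a5 (0.981). For the ligands they were Shisa5 (0.939), Slc7a4 (0.917) and Ece1 (0.912) for Il6, Gosr2 (0.860), Grem1 (0.799) and Gm20388 (0.788) for Lif, Snx16 (0.917), Hoxb9 (0.913) and Aen (0.906) for Il11, and 3110039I08Rik (0.964), Cttn (0.960) and Stat6 (0.960) for Clcf1.

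At the level of transcripts, the estimates show which forms of the receptors were read. Transcripts with the full coding length of 2751 bases held 95.7 to 99.3% of the Il6st counts in a library, and the single Osmr transcript with the full 2913 coding bases held 94.3 to 98.7%. For Il11ra1, on chromosome 4, the transcript that starts at base 41762309 (Il11ra1-204, GRCm38) held 81.0 to 99.1% of the counts. Lifr transcripts with a coding length under the full 3276 bases held 4.0 to 16.6% of its counts with CP, 5.9 to 10.4% with SP, 5.2 to 12.9% in MyoD + F/R/C, 3.2 to 8.0% in +MyoD and 8.4 to 22.2% in MEFs. The highest shares were in MEFs, where the gene was at its lowest level. The best covered of these, Lifr-207, has a coding length of 2157 bases.
For the ligands the split between transcripts differed widely between libraries of a condition, for example 20.5 to 66.6% for the Lif transcript of full coding length in +MyoD against 28.5 to 47.9% in MEFs. Il6 transcripts with the full coding length of 633 bases held 0 to 53.5% of its counts in a library, on few reads. Of the Clcf1 counts, 36.4 to 79.0% in a library fell on transcripts annotated without a coding sequence, so its gene-level counts do not all come from an mRNA for the cytokine. The Il11ra1 locus overlaps other genes, and near-copies of it, the Il11ra2 genes, had at most 1 count a library each.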

How the data were processed

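Poly-A RNA of 15 MEF cultures, 3 lines in each of 5 conditions, had been sequenced from stranded libraries with single-end reads. The authors processed the reads with bcl2fastq 2.20, fastp 0.20.0 and kallisto 0.46.1 against GRCm38.p6, per the labels, and used DESeq2 for their tests. The deposited files hold, per transcript, estimated counts without normalization, TPM, and transcript lengths. The authors' kallisto run scaled TPM by effective length to a fixed sum per library.

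Of 121843 transcripts, 121104 were matched by identifier to GENCODE M21 and summed into 35675 genes, and the 739 others (0.236 to 0.327% of counts) were left out. Sums of estimated counts were rounded. edgeR 4.0.16 in R 4.3.3 (glmQLFit, glmQLFTest, TMM, filterByExpr with a minimum count of 10 and a minimum total of 15) fitted condition in all 15 libraries, keeping 19331 genes, with 10 residual degrees of freedom. P-values were Benjamini-Hochberg adjusted over all tested genes. SE is the log2 fold change over the root of F. CPM uses TMM library sizes. Correlations were taken on log2 CPM (prior count 2). The fit was tested on simulated data.

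The study's methods treat each embryo as a separate line. That a replicate number names the same line in every condition was assumed from the sample titles, since the methods do not state it. After subtracting group means, same-line libraries correlated by 0.0737 on average (30 pairs, -0.00381 to 0.237) and different lines by -0.0368 (60 pairs). No libraries of a condition were duplicates (chi-square per degree of freedom at least 15.4).

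Named genes were all 9 members, up to 4 genes with the smallest p per list and comparison (the text gives a part of these), and the 3 tested genes most correlated with each member. Some other list genes, such as Osm, and marker genes were named after their values were seen. Members, lists and motifs were chosen with earlier results of these data known. Alternatives were RLE size factors, DESeq2 1.42.0, no filter, lengthScaledTPM counts, MEF line as a replicate block, only the 6 libraries compared, only the 9 libraries with F/R/C, and each library left out. Columns of length and effective length served only the lengthScaledTPM counts. Other tools were Python 3.11.15, numpy 2.4.6, pandas 2.3.3 and matplotlib 3.10.9. Results on 2 genes of the pathway lists are not reported here.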

Additional observations from a re-analysis of the deposited data

How the results depend on the processing

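Across 54 pairs of member and comparison, 18 were called and 14 of these in every alternative. None of the 18 changed sign. All 18 were in +MyoD against MEFs, MyoD + F/R/C against +MyoD and MyoD + F/R/C against MEFs, which share libraries, and none in the comparisons with CP or SP. In that order, 22.8%, 10.9% and 26.6% of all genes were called higher there, and 18%, 8.39% and 21.6% lower. Of 675 alternative values, 633 kept direction and call, 16 lost and 10 gained a call, and 16 changed sign.

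With lengthScaledTPM counts, or with only the 6 libraries compared, MyoD + F/R/C against +MyoD called 1 member higher (Lifr) and 1 lower (Clcf1) in place of 2 and 2. Of all genes, these fits called 8.59% and 7.22% higher and 7.32% and 5.58% lower, in that order. Leaving out a library gave 1 to 2 members higher (8.29 to 10.3% of all genes) and 1 to 3 lower (6.04 to 8.82%). MyoD + F/R/C against MEFs called 1 to 2 lower with a library left out (19.4 to 20.8% of all genes), and +MyoD against MEFs 0 to 1 (15.6 to 18.8%). With CP against MyoD + F/R/C, DESeq2 and the fit without a filter each called 1 lower (Osmr), the 6 libraries 1 (Il6st) and the 9 libraries with F/R/C 2. Over all genes, DESeq2 called 120 lower and the fit without a filter 35. The fit of the 6 libraries called 72 and that of the 9 libraries 111, against 7 by edgeR above. The replicate block added Lif (-0.70) to the members called lower in MyoD + F/R/C against +MyoD and changed no other member's call.

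All 16 sign changes were in members without a call. With lengthScaledTPM counts, Clcf1 was -0.14 in +MyoD against MEFs, and in CP against SP Clcf1 was 0.064 and Lifr 0.089. The others came from leaving out a library, with these ranges of log2 fold change. In +MyoD against MEFs, Il11 ran from -2.33 (without +MyoD replicate 1) to 0.11 (without replicate 3; 0.057 without replicate 2) and Clcf1 from -0.0084 to 0.18. In MyoD + F/R/C against +MyoD, Il11 ran from -2.08 to 0.36 (without +MyoD replicate 1), Il6st from -0.41 to 0.17 (without replicate 2) and Il11ra1 from -0.071 (without replicate 1) to 0.49. With SP against MyoD + F/R/C, Il6 ran from -0.18 to 0.57, Il11 from -0.38 to 0.40 and Lifr from -0.36 to 0.12, the turned value coming without SP replicate 3, and for Il11 also without MyoD + F/R/C replicate 3 (-0.014). With CP against MyoD + F/R/C, Lif ran from -0.31 to 0.14 (without MyoD + F/R/C replicate 3; 0.061 without CP replicate 1) and Il11ra1 from -0.17 to 0.011 (without MyoD + F/R/C replicate 2). The causes were not tested. Il6 rested on 40 to 417 counts a library, the fewest at the low end of any member.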
